A study of Arabidopsis thaliana with 16 samples.

Results

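The xyloglucan endotransglucosylase/hydrolases (XTHs) of Arabidopsis thaliana were followed in roots and shoots of dark-grown seedlings given ethylene gas. Members were taken by gene identifier as the whole family, XTH1 to XTH33, and none was picked or dropped by its values. The family itself was chosen with earlier results of these data known. These 33 genes stand in 32 of the 35814 rows of each deposited table. XTH12 (AT5G57530) and XTH13 (AT5G57540) are joined in 1 row, as are XTH18 (AT4G30280) and XTH19 (AT4G30290), and XTH19 has a further row of its own at the same locus. RNA was sequenced from wild type Col-0 and from cbp20, a mutant of the cap-binding protein CBP20 in the Col background. Seedlings were 3 days old, were grown in the dark, and received air or 10 ppm ethylene for 4 h before roots and shoots were taken. The 8 groups (Col-0 or cbp20, root or shoot, air or ethylene) had 2 libraries each, 16 in all. The deposited tables give 1 value per group in FPKM, fragment counts scaled by transcript length and by sequencing depth, so no spread between libraries could be given and no comparison below has a replicate check. Differences are therefore described by their size and set beside the same quantity over all rows of the table.

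XTHs cut the xyloglucan chains that tether cellulose microfibrils in the plant cell wall and rejoin the cut end to another chain, or, in a few members, to water. By this they loosen or rebuild the wall while a cell expands. Ethylene shortens the root and the hypocotyl of dark-grown seedlings, tightens the apical hook, and promotes root hairs. Members differ in the cells that express them: some are known from root hairs and the root epidermis, others from the elongating root, the hypocotyl, or tissues that have been touched.

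Levels were checked against tissue markers before the family was read. Of the 5 root markers listed, 4 stood in used rows (PRP3 did not), and their summed level was 757 to 1301 FPKM in the 4 root groups and 203 to 292 FPKM in the 4 shoot groups. The 5 shoot markers, 1 of them in a row joined with another gene, summed to 95.1 to 458 FPKM in roots and 10970 to 15486 FPKM in shoots. STM, a gene of the shoot meristem, stood at 0 in 3 root groups and at 0.896 FPKM in cbp20 roots with ethylene. CBP20 itself was at 23.8 to 35.8 FPKM across the Col-0 groups and at 0.509 to 2.14 FPKM in the cbp20 groups.

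The sequences shown first are the 250 bases upstream of the annotated starts of the 4 members known from root hairs, since their 3 rows were all higher with ethylene in the roots of both genotypes. They were read from the RefSeq annotation and genome, build TAIR10.1, on the strand of the gene, for XTH26 at chr4:14244040-14244289, for XTH14 at chr4:13130041-13130290, for XTH12 at chr5:23301690-23301939 and for XTH13 at chr5:23304096-23304345. XTH26 and XTH14 lie on the plus strand, XTH12 and XTH13 on the minus strand. Capitals mark ATGTA, or its reverse complement TACAT, the core letters known from binding sites of the ethylene transcription factor EIN3.
XTH26: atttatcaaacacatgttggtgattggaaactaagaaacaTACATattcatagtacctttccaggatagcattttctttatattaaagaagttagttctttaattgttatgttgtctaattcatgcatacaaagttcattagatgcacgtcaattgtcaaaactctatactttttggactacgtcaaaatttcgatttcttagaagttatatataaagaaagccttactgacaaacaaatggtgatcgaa
XTH14: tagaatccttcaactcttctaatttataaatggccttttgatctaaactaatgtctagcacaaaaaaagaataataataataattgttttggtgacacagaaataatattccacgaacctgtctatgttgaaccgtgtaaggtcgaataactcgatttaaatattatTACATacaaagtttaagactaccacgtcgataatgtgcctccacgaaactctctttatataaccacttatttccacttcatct
XTH12: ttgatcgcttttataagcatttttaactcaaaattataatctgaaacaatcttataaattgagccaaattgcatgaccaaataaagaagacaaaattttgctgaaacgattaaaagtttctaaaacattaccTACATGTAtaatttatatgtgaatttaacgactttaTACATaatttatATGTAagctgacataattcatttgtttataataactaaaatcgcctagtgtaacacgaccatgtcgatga
XTH13: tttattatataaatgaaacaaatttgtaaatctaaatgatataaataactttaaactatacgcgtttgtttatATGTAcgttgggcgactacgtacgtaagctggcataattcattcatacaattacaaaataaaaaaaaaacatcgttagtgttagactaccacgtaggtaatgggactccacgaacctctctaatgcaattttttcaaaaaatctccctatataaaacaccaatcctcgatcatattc
The core letters occurred 4 times upstream of XTH12 and 1 time each upstream of XTH13, XTH14 and XTH26, but also 2 times upstream of XTH21, which was lower in ethylene. Of the 33 members, 24 (72.7%) held the letters on either strand, as did 52% of 27443 promoter windows of the same length. The G-box CACGTG, present in 6.49% of promoters, and the GCC box GCCGCC, present in 1.87%, were found in 0 of the 33 windows on either strand. The root hair element, searched by its published consensus and present in 0.754% of promoters, was also found in 0. A match describes the letters only and does not show a binding site.

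The catalytic stretch is shown for 5 members to let the coding sequences be compared. Each is 30 bases of the RefSeq coding sequence, with the codons of both catalytic glutamates in capitals.
XTH26: gatGAGatagacttcGAGttcctaggaaat
XTH12: gatGAGattgatttcGAGttcttgggtaac
XTH13: gatGAAatcgacttcGAGttcttgggtaat
XTH4: gacGAGatagactttGAGttccttggaaac
XTH31: gatGAGgtcgatatcGAGtttctagggaca
The coding sequences of XTH12 and XTH13 were 89.4% identical with a longest identical run of 47 bases. XTH18 and XTH19 were 87.6% identical with a longest run of 68 bases. Genes in separate rows were also alike. XTH17 and XTH18 were 85.6% identical with a longest run of 47 bases, and XTH18 and XTH20 85.6% with 35 bases. Reads from such pairs can be split between them by the counting, so the separate XTH19 row is uncertain. The same limit bears on the XTH17 and XTH20 rows. Joined rows are given as joined, and why they were joined was not tested.

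A row was measured in a table when neither group was at 0 and air or ethylene reached 1 FPKM, and it was past the fold at 1.5-fold or more in either direction. Of the 32 rows, 26 were measured in each table. XTH1 (AT4G13080) was at 0 in all 8 groups, and XTH2 (AT4G13090, at most 0.295 FPKM), XTH3 (AT3G25050, at most 0.454 FPKM) and XTH29 (AT4G18990, at most 0.265 FPKM) stayed under 1 FPKM throughout. XTH25 (AT5G57550) was at 1.21 FPKM in Col-0 roots in air and at most 0.374 FPKM elsewhere. The summed level of the family went from 2109 FPKM in air to 2833 FPKM in ethylene in the roots of Col-0 and, in its shoots, from 6719 to 8403 FPKM. In cbp20 it went in roots from 2668 to 3689 FPKM and in shoots from 6408 to 8111 FPKM. More cells of a type and more RNA per cell cannot be told apart in such tissue samples.

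In Col-0 roots 9 of the 26 measured rows were higher in ethylene and 4 lower, where 15.2% of all measured rows were higher and 15% lower. In Col-0 shoots 7 were higher and 5 lower, beside 15% and 20.6% of all rows. In cbp20 roots 7 were higher and 7 lower, beside 13.2% and 14.6%, and in cbp20 shoots 11 were higher and 5 lower, beside 15.1% and 20.6%. On the high side the family's share was above that of all rows in each table, and on the low side it was above in cbp20 roots and close to it in the other tables. The median log2 ratio of ethylene to air was 0.29, 0.02, 0.09 and 0.30 in the same order, against 0.00, -0.01, 0.02 and -0.00 over all rows. Among rows with at least 10 FPKM, 21.8% of Col-0 root rows, 28.2% of Col-0 shoot rows, 19.5% of cbp20 root rows and 28% of cbp20 shoot rows were past the fold in either direction.

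Of the 32 rows, 22 were past the fold in at least 1 table and 10 in none. Of the 27 XTH rows measured in any table these 22 are 81.5%, and over all rows the same share was 62.6%. XTH7, XTH12/XTH13, XTH15 and XTH26 were higher in ethylene in all 4 tables, and 0 rows were lower in all 4. Over all rows measured in every table, 1.68% were higher in all 4 and 2.94% lower in all 4. In the roots of both genotypes 7 rows were higher (XTH7, XTH10, XTH11, XTH12/XTH13, XTH14, XTH15 and XTH26) and 3 lower (XTH4, XTH8 and XTH21), out of 26 measured, beside 6.43% and 6.81% of all rows. In the shoots of both genotypes 7 were higher (XTH6, XTH7, XTH12/XTH13, XTH15, XTH18/XTH19, XTH26 and XTH31) and 4 lower (XTH22, XTH23, XTH24 and XTH30), out of 26 measured, beside 5.85% and 11% of all rows.

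**Figure D1:**
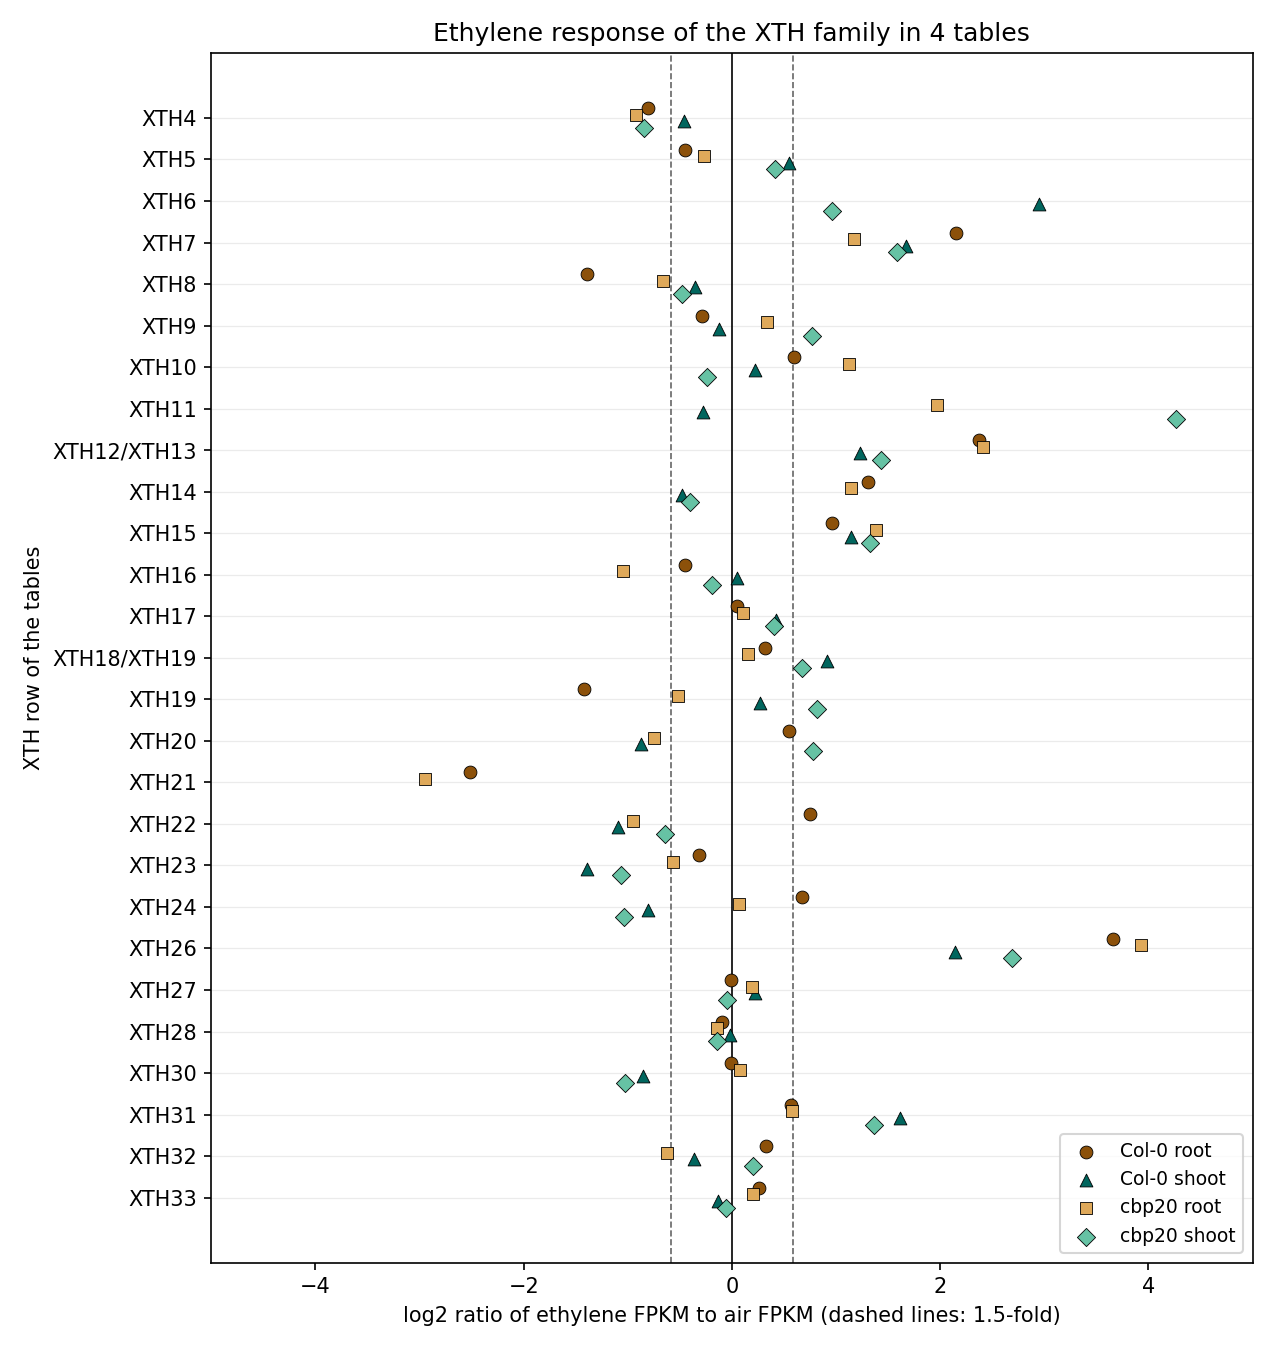
Log2 ratio of ethylene FPKM to air FPKM for each measured XTH row, with 1 point per table (Col-0 and cbp20, root and shoot); dashed lines mark 1.5-fold. XTH26 lies farthest to the right in roots at 3.66 and 3.93, XTH21 farthest to the left at -2.52 and -2.95; the Col-0 root point of XTH11, whose air value is near 0, lies beyond the axis and is not drawn.

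XTH26 and the XTH12/XTH13 row, known from root hairs and the root epidermis, gave the largest ratios of ethylene to air in roots among rows that reached 10 FPKM. XTH26 (AT4G28850, chromosome 4, 14244295 to 14245957) went from 6.1 FPKM in air to 77 FPKM in ethylene in Col-0 roots, 12.6-fold, and from 8.06 to 123 FPKM in cbp20 roots, 15.3-fold. In shoots it went in Col-0 from 3.44 to 15.1 FPKM and in cbp20 from 1.85 to 11.9 FPKM. Ethylene was thus above air in all 4 tables for XTH26, and in air it was a minor member of the family.

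The joined row of XTH12 and XTH13 (chromosome 5, 23300241 to 23304049) went from 47.5 to 246 FPKM in roots of Col-0 and from 79.5 to 424 FPKM in those of cbp20, 5.18-fold and 5.33-fold. In shoots it went in Col-0 from 7.38 to 17.3 FPKM and in cbp20 from 6.47 to 17.5 FPKM. Every ethylene value of this row was above its air value, and every root value above every shoot value. XTH14 (AT4G25820, chromosome 4, 13130297 to 13131788) went from 154 to 381 FPKM in roots of Col-0 and from 309 to 684 FPKM in those of cbp20. In shoots it went the other way, in Col-0 from 30.9 to 22.2 FPKM and in cbp20 from 44.3 to 33.7 FPKM, short of 1.5-fold in both.

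Together the 3 rows made up 9.83% of the summed XTH level of Col-0 roots in air and 24.8% in ethylene. In cbp20 roots the share went from 14.9% to 33.4%, and in shoots it was between 0.622% and 0.822% in all 4 groups. XTH14 was the most abundant XTH row of cbp20 roots in ethylene. The root hair genes COBL9 and EXPA7, read as tissue markers and not as members, were also higher in roots with ethylene. COBL9 went in Col-0 from 16.7 to 31.4 FPKM and in cbp20 from 17.9 to 40.5 FPKM, and EXPA7 from 70.8 to 149 and from 73.3 to 170 FPKM. Of the other listed root markers, PIN2 was 31.4 and 30.4 FPKM in Col-0 roots and 23.8 and 27.8 FPKM in cbp20 roots, in air and ethylene. CASP1 was 638 and 775 FPKM and 805 and 1063 FPKM in the same roots, and PRP3 stood in no used row. In shoots EXPA7 was 5.73 and 5.46 FPKM in Col-0 and 5.39 and 3.61 FPKM in cbp20, in air and ethylene, and COBL9 was 1.22 and 1.41 FPKM in Col-0 and 1.42 and 1.61 FPKM in cbp20, where XTH26 and XTH12/XTH13 were higher in ethylene. The summed root markers in shoots were 203 and 257 FPKM in Col-0 and 221 and 292 FPKM in cbp20, in air and ethylene, most of it CASP1 of the endodermis (183 and 238, 203 and 276 FPKM), and their part in the shoot values of these rows was not tested.

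**Figure D2:**
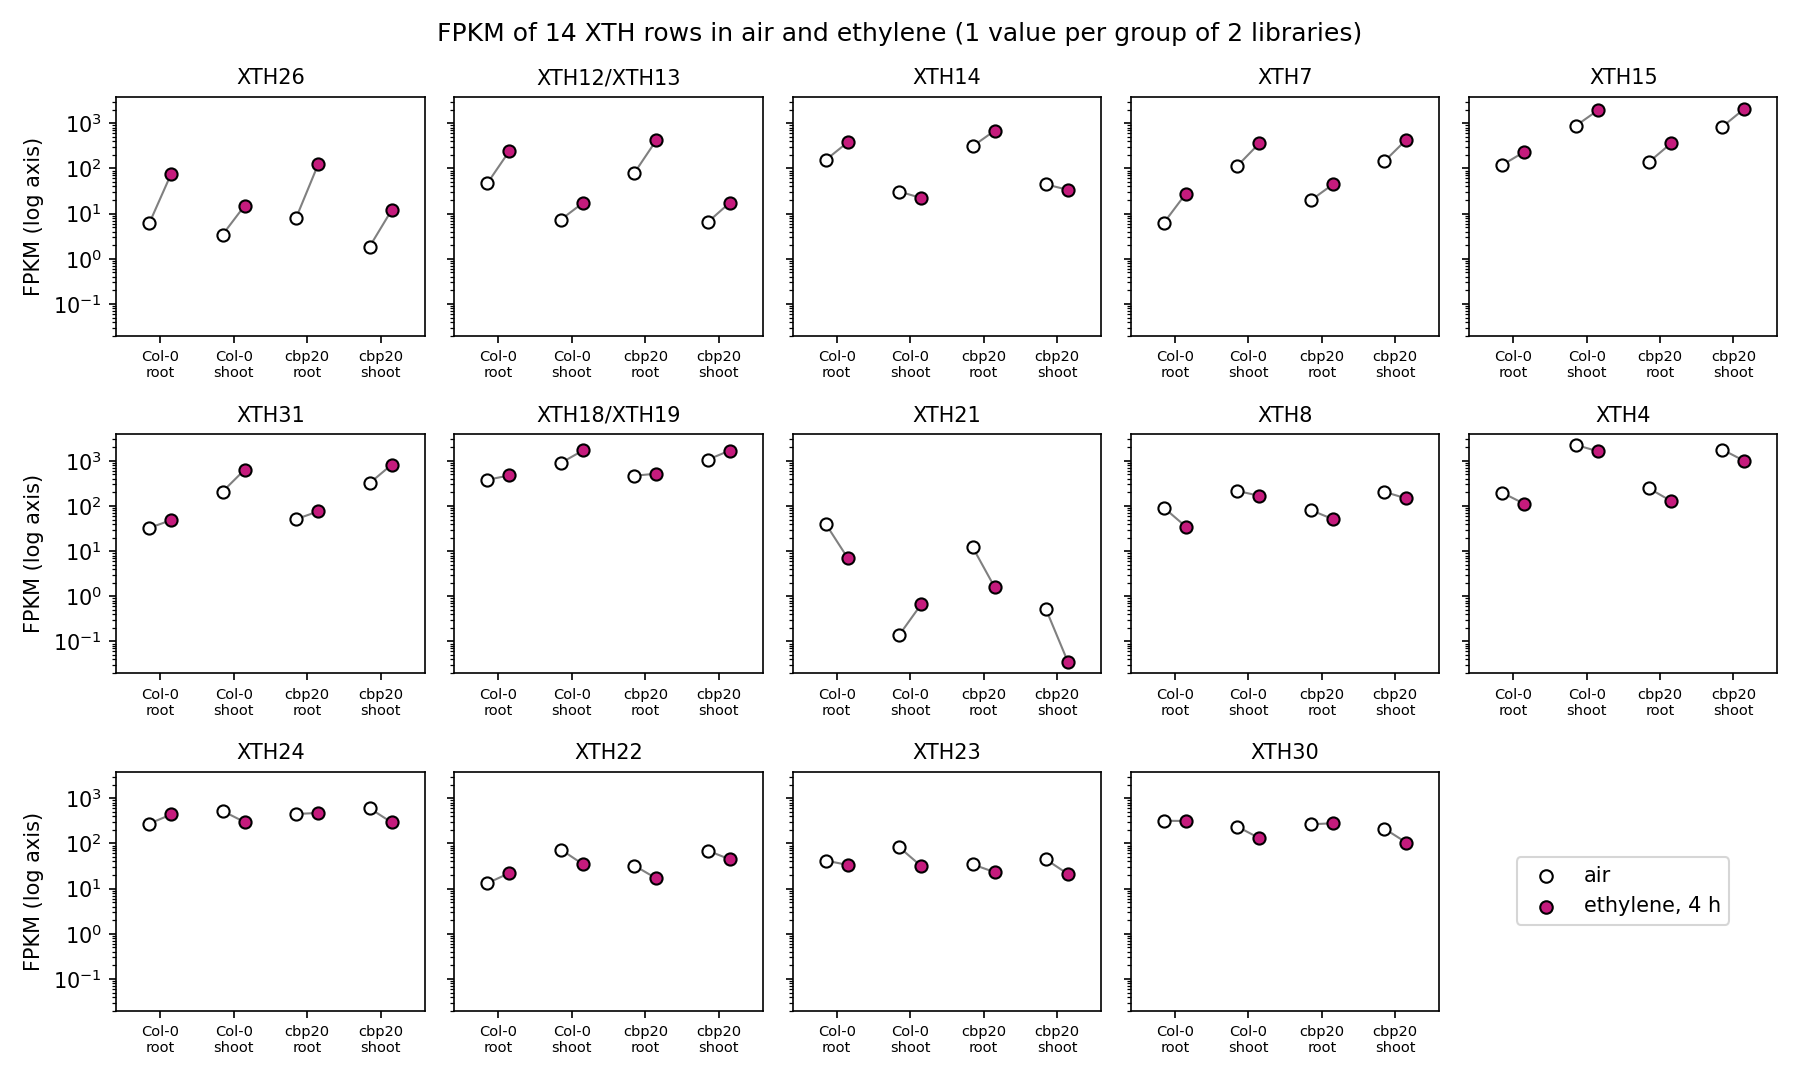
FPKM of 14 XTH rows on a log axis, in air (open) and ethylene (filled), joined by a line within each of the 4 tables; each point is 1 value for a group of 2 libraries. The lines of XTH26, XTH12/XTH13, XTH7 and XTH15 slope up in all 4 tables, that of XTH14 only in roots, and those of XTH22, XTH23, XTH24 and XTH30 slope down in both shoot tables.

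Members of the root elongation group, XTH17 to XTH20, included abundant rows that differed less. XTH17 (AT1G65310) stood at 223 FPKM without and 231 FPKM with ethylene in Col-0 roots, at 671 and 898 FPKM in the shoots, and at 261 and 282 and at 639 and 843 in roots and shoots of cbp20, past the fold in none. The joined XTH18/XTH19 row was past the fold in shoots, in Col-0 from 899 to 1692 FPKM and in cbp20 from 1060 to 1690 FPKM, but not in roots, from 381 to 475 and from 467 to 519 FPKM. It was the most abundant XTH row of roots in air in both genotypes.

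The separate XTH19 row went from 28.4 to 10.6 FPKM in Col-0 roots, from 42.4 to 51.1 in Col-0 shoots, in cbp20 roots from 27.5 to 19.2 FPKM and in cbp20 shoots from 32 to 56.8 FPKM. XTH20 (AT5G48070) went from 3.56 to 5.22 FPKM in Col-0 roots, from 7.95 to 4.34 in Col-0 shoots, in cbp20 roots from 11.8 to 7.04 FPKM and in cbp20 shoots from 6.56 to 11.2 FPKM. Neither row went the same way in all 4 tables, and XTH20 was low throughout.

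Rows of the touch group were lower in ethylene in shoots. XTH22 (AT5G57560), known as the touch gene TCH4, went in Col-0 shoots from 73.5 to 34.6 FPKM and in cbp20 shoots from 69.4 to 44.6 FPKM. XTH23 (AT4G25810) went from 82.8 to 31.6 FPKM and from 44.2 to 21 FPKM in the same shoots, and XTH24 (AT4G30270) from 523 to 297 and from 603 to 293 FPKM. All 3 measured rows of this group were thus past the fold on the low side in the shoots of both genotypes.

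In roots the same genes did not move together. XTH22 went from 13.2 to 22.2 FPKM in roots of Col-0 and from 32.4 to 16.8 FPKM in those of cbp20, past the fold in opposite directions. XTH24 went from 275 to 439 FPKM in roots of Col-0 and from 450 to 474 FPKM in those of cbp20. XTH23 went from 41.8 to 33.5 and from 34.5 to 23.2 FPKM, past the fold in neither. The ethylene values of XTH24 were close in both genotypes, and its air values were not, across tables that were normalized separately.

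The group III-A members, which include known hydrolases, differed between shoots and roots. XTH31 (AT3G44990, chromosome 3, 16446975 to 16448764) went in Col-0 shoots from 209 to 637 FPKM and in cbp20 shoots from 319 to 819 FPKM, 3.05-fold and 2.57-fold. In roots it went from 32.7 to 48.6 FPKM and from 50.9 to 76 FPKM, just short of 1.5-fold in both. XTH32 (AT2G36870) was past the fold only in cbp20 roots, from 5.7 to 3.72 FPKM, and was 48.1 and 37.6 FPKM in Col-0 shoots, 60.3 and 69.2 in cbp20 shoots, and 2.21 and 2.77 in Col-0 roots.

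Of group III-B, XTH30 (AT1G32170) was lower in ethylene in shoots, in Col-0 from 236 to 131 FPKM and in cbp20 from 214 to 105 FPKM. In roots it was 318 and 315 FPKM in Col-0 and 266 and 280 FPKM in cbp20. XTH27 (AT2G01850, 49.1 to 71.5 FPKM over the 8 groups) and XTH28 (AT1G14720, 22.8 to 38.4 FPKM) were past the fold in no table.

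Among the remaining members, XTH7 and XTH15 were the abundant rows that were higher in every table. XTH7 (AT4G37800) went from 6.27 to 27.9 FPKM in Col-0 roots, from 114 to 362 in Col-0 shoots, in cbp20 roots from 19.7 to 44.3 FPKM and in cbp20 shoots from 143 to 431 FPKM. XTH15 (AT4G14130) went from 119 to 232, from 873 to 1922, from 139 to 360 and from 842 to 2110 FPKM in the same order. With these values XTH15 passed XTH4 as the most abundant XTH row of shoots in ethylene, in both genotypes.

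XTH4 (AT2G06850) led the family in shoots in air and was lower in ethylene in every table, from 2255 to 1635 FPKM in Col-0 shoots, from 1769 to 990 in cbp20 shoots, from 197 to 112 FPKM in roots of Col-0 and from 245 to 129 FPKM in those of cbp20. The Col-0 shoot difference was short of 1.5-fold. XTH8 (AT1G11545) went from 91.2 to 34.8 FPKM in Col-0 roots, from 81 to 51.2 in cbp20 roots, in Col-0 shoots from 215 to 168 FPKM and in cbp20 shoots from 206 to 147 FPKM. Its ethylene value was below air in all 4 tables, past the fold in roots.

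XTH21 (AT2G18800, chromosome 2, 8144912 to 8146439), known from the growing primary root, was nearly confined to roots in these tables and gave the largest differences on the low side. It went from 40.2 to 7.03 FPKM in roots of Col-0 and from 12.3 to 1.6 FPKM in those of cbp20, 5.72-fold and 7.72-fold lower. In shoots it was 0.138 and 0.661 FPKM in Col-0 and 0.516 and 0.0348 FPKM in cbp20, under the minimum for a ratio.

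XTH6, XTH10 and XTH11 stayed under 10 FPKM in every group. XTH10 (AT2G14620) went from 3.49 to 5.29 FPKM in roots of Col-0 and from 4.04 to 8.81 FPKM in those of cbp20, and was 2.39 and 2.78 FPKM and 4.96 and 4.21 FPKM in the respective shoots. XTH6 (AT5G65730) went in Col-0 shoots from 0.194 to 1.5 FPKM and in cbp20 shoots from 1.34 to 2.6 FPKM, and was at most 0.282 FPKM in roots. XTH11 (AT3G48580) was listed at 8.29e-05 FPKM in Col-0 roots in air and at 9.09 FPKM in ethylene, at 1.51 and 1.24 in Col-0 shoots, at 1.31 and 5.14 in cbp20 roots and at 0.143 and 2.76 in cbp20 shoots. Since its lowest value is an estimate of practically 0, no fold is given for XTH11 in Col-0 roots, and without it 8 rows were higher there.

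The other rows were past the fold in 1 table or none. XTH16 (AT3G23730) went in cbp20 roots from 26.8 to 12.9 FPKM and from 18.5 to 13.5 FPKM in those of Col-0. Its shoot values were 97.8 and 101 FPKM in Col-0 and 66.2 and 58 FPKM in cbp20. XTH9 (AT4G03210) went from 105 to 179 FPKM in cbp20 shoots, and stood at 112 and 104 FPKM in Col-0 shoots, 6.48 and 5.31 in Col-0 roots and 11.3 and 14.4 in cbp20 roots. XTH5 (AT5G13870) was between 5.56 and 61.7 FPKM and XTH33 (AT1G10550) between 17.1 and 70.8 FPKM over the 8 groups, past the fold in no table.

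The design also asks whether roots and shoots responded alike. For each row the log2 ratio of the shoot was subtracted from that of the root, and the difference was set beside the 5th to 95th percentile of the same difference over all rows of like level. This range describes the tables and is no test. In Col-0, 15 of 25 rows had responses that differed by 1.5-fold or more between tissues, beside 40.3% of all rows. Without XTH11, 14 rows did. At a mean of 10 FPKM or more, 13 of 22 XTH rows did, beside 32% of all rows at that level. Beyond the range on the high side lay XTH14 (1.79), XTH22 (1.83), XTH24 (1.49), XTH26 (1.52) and the uncertain XTH11. On the low side lay XTH8 (-1.04), XTH31 (-1.03) and the uncertain separate XTH19 row (-1.69). The range was -1.01 to 1.31 for rows at 100 FPKM or more and -1.02 to 1.35 for rows at 10 to 100 FPKM.

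In cbp20, 13 of 25 rows differed by 1.5-fold or more between tissues, beside 38.2% of all rows. At a mean of 10 FPKM or more, 10 of 22 XTH rows did, beside 29.8% of all rows at that level. XTH14 (1.54), XTH24 (1.12), XTH26 (1.24) and XTH30 (1.10) lay above the range, and XTH19 (-1.34) and the low XTH11 (-2.30) below it. XTH14, XTH24, XTH26 and the uncertain separate XTH19 row were thus outside the range on the same side in both genotypes. The comparisons of the 2 genotypes rest on separate libraries.

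Levels set side by side across tables show a further contrast between tissues. The tables were normalized separately, and the median row differed by 0.01 to 0.08 on the log2 scale between root and shoot. In Col-0 in air, 18 of 27 XTH rows were at least 1.5-fold lower in root than in shoot and 5 at least 1.5-fold higher, while over all rows 28.1% were lower and 27.2% higher. The 18 include XTH11, whose root value was practically 0. The 5 were XTH12/XTH13, XTH14, XTH21, XTH25 and XTH26. In cbp20 in air 14 were lower and 6 higher, beside 25.7% and 27.9% of all rows, and the median XTH log2 ratio of root to shoot was -1.23 in Col-0 and -1.10 in cbp20.

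**Figure D3:**
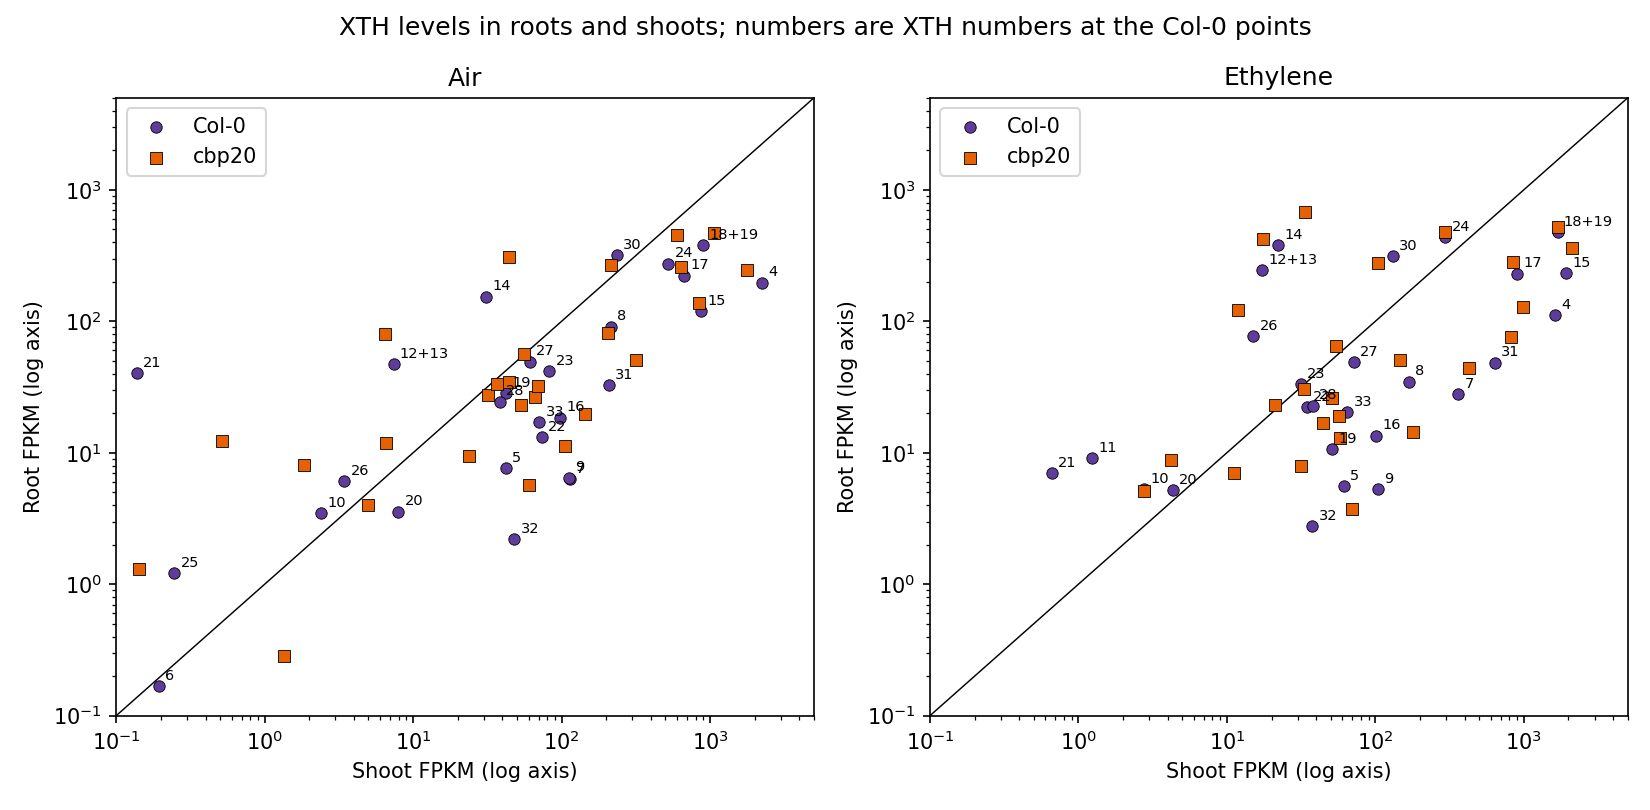
Root FPKM against shoot FPKM of the XTH rows on log axes, in air (left) and ethylene (right), for Col-0 and cbp20; rows under 0.1 FPKM in either tissue are left out, and numbers at the Col-0 points are XTH numbers. Most rows lie under the diagonal, while XTH12/XTH13, XTH14 and XTH26 lie above it in both panels and are higher in roots with ethylene.

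The responses were also compared between genotypes. In shoots 4 of 26 rows had log2 ratios that differed by 1.5-fold or more between cbp20 and Col-0, beside 31.6% of all rows, with a median absolute difference of 0.25 against 0.35 for all rows. At a mean of 10 FPKM or more, 1 of 21 XTH rows did, beside 18.1% of all rows at that level. Only XTH9 (0.89, beyond the upper bound of 0.57) and the low XTH11 (4.55, beyond 2.26) lay outside the range of all rows. The responses had the same sign in 19 of 26 rows in shoots and in 20 of 26 in roots, beside 68.4% and 68.7% of all rows.

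In roots 10 of 26 rows differed by 1.5-fold or more between genotypes, beside 25% of all rows, with a median absolute difference of 0.34 against 0.28 for all rows. At a mean of 10 FPKM or more, 6 of 20 XTH rows did, beside 12.3% of all rows at that level. XTH8 (0.73) and the uncertain separate XTH19 row (0.91) lay above the range of -0.66 to 0.71 for rows at 10 to 100 FPKM, where both were less lowered in cbp20. XTH7 (-0.98) and XTH22 (-1.69) lay below it, and XTH24 (-0.60) below the range of -0.37 to 0.46 for rows at 100 FPKM or more. XTH11 also lay below, by its Col-0 air value of practically 0, and without it 9 rows differed by 1.5-fold or more. The rows known from root hairs stayed inside: XTH26 differed by 0.27, XTH12/XTH13 by 0.04 and XTH14 by -0.17.

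Root levels in air also differed between the genotypes. In cbp20 roots in air 10 of 27 XTH rows were at least 1.5-fold above Col-0 and 2 below, beside 15.4% and 10.8% of all rows, with a median log2 ratio of 0.40 against 0.04 for all rows. The 10 include XTH11, by its Col-0 value of practically 0. XTH7 was 6.27 FPKM in Col-0 and 19.7 in cbp20, XTH22 13.2 and 32.4, XTH24 275 and 450, and XTH14 154 and 309. XTH21 went the other way, at 40.2 and 12.3 FPKM, as did the low XTH25, at 1.21 and 0.128 FPKM. In ethylene 9 of 26 rows were above and 2 below, beside 15.3% and 12.2% of all rows. The summed shoot markers were also higher in cbp20 roots than in Col-0 roots, 365 against 166 FPKM in air and 458 against 95.1 FPKM in ethylene. The summed root markers were 920 against 757 and 1301 against 986 FPKM. Single markers did not all follow the sums. In air CAB1 was 164 against 65.5 FPKM, RBCS1A 176 against 93.9 and the LHCB2.1 row 22.6 against 4.45. HLS1 was 2.26 against 2.41 FPKM, and STM was at 0 in both. Of the root markers, CASP1 was 805 against 638 FPKM and PIN2 23.8 against 31.4. EXPA7 was 73.3 against 70.8 and COBL9 17.9 against 16.7. The part of these marker differences in the result was not tested.

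**Figure D4:**
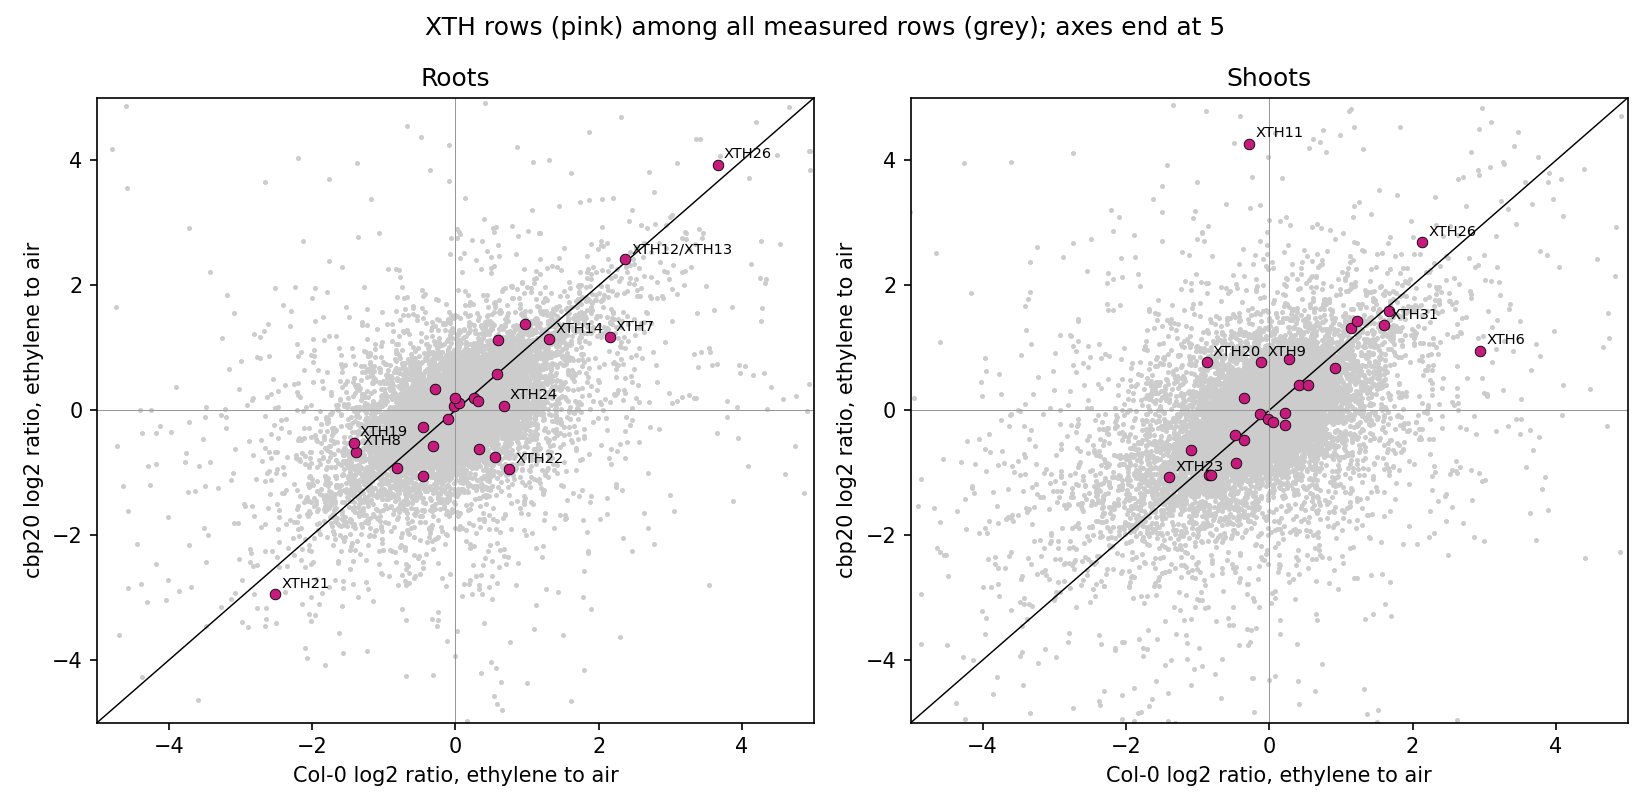
Log2 ratio of ethylene to air in cbp20 against Col-0, for roots (left) and shoots (right), with XTH rows in pink over all measured rows in grey and the line of equal response; axes end at 5, beyond which the Col-0 root point of XTH11 lies. XTH26, XTH12/XTH13 and XTH14 lie near the line in roots, and XTH22 lies on opposite sides of 0 in the 2 genotypes.

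Several members are neighbours on the chromosomes, and some of these differed from each other. Neighbouring genes in general were not compared. XTH1 and XTH2, 3139 bases apart on chromosome 4, both stayed under 1 FPKM. XTH23 and XTH14 are 363 bases apart on chromosome 4, and XTH14 was higher in ethylene in the roots of both genotypes where XTH23 was past the fold in neither. In the shoots of both genotypes ethylene was below air for XTH23 and XTH14 alike. XTH12, XTH13, XTH25 and XTH22 follow each other on chromosome 5 with 1097, 686 and 565 bases between them. Of these, the joined XTH12/XTH13 row was higher in all 4 tables, XTH25 was at most 1.21 FPKM, and XTH22 was lower in 3 tables and higher in Col-0 roots. XTH24, XTH18 and XTH19 lie 5161 and 1500 bases apart on chromosome 4. The XTH18/XTH19 row was higher and XTH24 lower in the shoots of both genotypes, while in roots ethylene was above air for both rows.

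The genes that build and trim xyloglucan were read as a list of 18, of which 16 matched by symbol and stood in used rows. In Col-0 roots 3 were higher in ethylene and 1 lower, in Col-0 shoots 3 and 2, in cbp20 roots 2 and 1 and in cbp20 shoots 2 and 2, with the same percentages of all rows as above. XXT3, counted as lower in cbp20 shoots, was listed at 1.05e-105 FPKM in ethylene, practically 0, and is given no fold, so that 1 was lower without it. CSLC12, a glucan synthase of the xyloglucan backbone family, went from 1.92 to 17.2 FPKM in roots of Col-0 and from 3.42 to 23.2 FPKM in those of cbp20, and from 3.6 to 0.87 and from 1.45 to 1.14 FPKM in shoots. XYL1, a xylosidase of xyloglucan side chains, went in Col-0 shoots from 131 to 219 FPKM and in cbp20 shoots from 111 to 158 FPKM. The xylosyltransferases XXT1 (13.6 to 25.5 FPKM over the 8 groups) and XXT5 (36.1 to 87.7 FPKM) were past the fold in no table. Their relative XXT2 passed it only in Col-0 shoots (air 90.6, ethylene 143 FPKM). XXT4 passed it only in cbp20 shoots (air 3.43, ethylene 6.05 FPKM). The low XXT3 was past the fold on opposite sides in roots, with log2 ratios of 1.13 for Col-0 and -1.11 for cbp20. Short of 1.5-fold were 12 of the 16 in Col-0 roots, 11 in Col-0 shoots, 13 in cbp20 roots and 12 in cbp20 shoots. So were most of all measured rows, at 12173 of 17443, 11319 of 17578, 12615 of 17474 and 11212 of 17431 in that order.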

How the data were processed

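RNA was extracted from roots and shoots, and poly(A) strand-specific libraries were sequenced. Per the labels and the submitters' processing notes, the authors aligned reads with TopHat2 2.0.9 to TAIR10 and used Cuffdiff 2.2.1 for the comparison of air and ethylene. The deposited tables hold FPKM values, 1 per group of 2 libraries, which the authors normalized within each of 4 tables; they also hold the authors' own fold changes and p-values, which were not used. The number of reads behind each value was not analysed here, so precision could not be given. Nothing in the labels says that the 2 libraries came from separate cultures. The root libraries were run on lane 6 and the shoot groups on lanes 5 and 6, so tissue and lane are partly confounded.

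Rows that name no gene (1729) or whose name stands at several loci (2745) were left out, leaving 31340. Of these, 1744 give 1 value for several joined genes. How reads were shared between a joined row and a separate row at the same locus, as for XTH19, is not known. Log2 ratios of ethylene to air were computed from the plain FPKM, with at least 1 FPKM in air or ethylene and neither group at 0, and called past the fold at 1.5-fold. No test was run. The steps were tested on simulated data. Rows past the fold in at least 1 table or at 100 FPKM or more are named with their values; the other members are named with their range or highest value, so that each is accounted for. The members and lists were chosen with earlier results of these data known. The alternatives were a 2-fold minimum, other FPKM minima, a pseudocount of 1, centring on the median row, and joined rows left out. Sequences are from RefSeq, TAIR10.1, whose gene places overlapped 23510 of 23510 rows that name 1 gene; row coordinates are the authors', in TAIR10. Python 3.11.15, pandas 2.3.3, numpy 2.4.6, matplotlib 3.10.9 and Biopython 1.88 were used.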

Additional observations from a re-analysis of the deposited data

Results flagged for a closer look

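XTH22, the touch gene, was past the fold in opposite directions between tissues and between genotypes. Its log2 ratio in Col-0 roots was 1.83 above that in Col-0 shoots, and cbp20 roots minus Col-0 roots gave a difference of -1.69. XTH24 was higher in Col-0 roots and lower in Col-0 shoots, and its log2 ratios differed by 1.49. XTH20, at 3.56 to 11.8 FPKM, was lower in cbp20 roots and higher in cbp20 shoots (difference -1.52), and higher in cbp20 shoots but lower in Col-0 shoots (difference 1.65). With 1 value per group none of these differences was tested. The low level of XTH20 leaves it inside the range of all rows in both cases, whereas both XTH22 differences and that of XTH24 lay outside it.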

How the results depend on the processing

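Of 132 alternative counts, 118 stayed within 1.5 times the reported one. At 2-fold, 8 rows were past the fold in Col-0 roots (5 higher), 2 were lower in Col-0 shoots, 9 were past it in cbp20 roots (2 lower), and 9 in cbp20 shoots (6 higher, 3 lower). At 0.1 FPKM and 2-fold, 3 were lower in Col-0 shoots, 9 were past the fold in cbp20 roots (2 lower) and 10 in cbp20 shoots (6 higher). With 1 FPKM required in air and ethylene alike, 2 rows in place of 4 differed between genotypes in shoots. The shares of all rows at these settings are not given. Whether the family's share stayed above that of all rows there was therefore not assessed. Of 476 alternatives for the 55 single responses past the fold, 432 kept both direction and side of the minimum, 44 fell under it and 0 changed direction. Minima of 10 FPKM and values under 0.001 FPKM taken as 0 were chosen after seeing the data; the latter left 8 rows higher in Col-0 roots. No paired analysis was possible because the tables carry 1 value per group, and for the same reason no library could be left out. Since depth is unknown, the precision of low rows such as XTH6, XTH11 and XTH20 could not be judged.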
